A study of Mus musculus with 12 samples.

Results

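The genes described here are 27 genes of cholesterol synthesis and sterol regulation, taken by name from the 24062 genes that were counted in every library. By role, 18 encode enzymes of the synthesis pathway (7 of the mevalonate steps, 3 that make squalene and close the sterol rings, 8 that turn lanosterol into cholesterol), 5 sense sterols or control the pathway, and 4 move sterols within or out of cells. Poly(A) RNA was sequenced from liver and from gastrocnemius, a calf muscle, of 6 female C57BL/6N mice kept on chow. The R135W group comprised animals 5, 7 and 12, aged 9.0, 7.4 and 8.6 weeks, homozygous for the R135W missense change in Mars2, a nuclear gene whose product charges the methionine tRNA of mitochondria. The wild type (WT) group comprised animals 6, 8 and 9, aged 9.0, 9.0 and 7.4 weeks, which carried no listed allele or treatment. Each animal gave 1 library per tissue, so the 12 libraries fall into 4 groups of 3, and replicates are separate animals.

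Cells make cholesterol from acetyl-CoA through mevalonate, isoprenoids and squalene to lanosterol, the first sterol, which a set of reticulum-bound enzymes then trims to cholesterol. Most of the enzyme genes are switched on together by the transcription factor SREBP2, which SCAP escorts to the Golgi for cleavage when membrane sterol is low and INSIG proteins hold back when it is high. Excess sterol instead activates liver X receptors, which raise sterol export pumps, and the liver is the main organ that both makes cholesterol and disposes of it into bile.

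Total counts ran from 20751583 to 30460237 per library. Mars2 RNA averaged 2.93 ± 0.646 CPM (read counts expressed relative to the TMM-scaled total of a library, within 1 tissue) in R135W livers and 2.77 ± 0.627 CPM in WT livers, and 9.45 ± 0.961 CPM in R135W muscles and 11.7 ± 0.941 CPM in WT muscles (SD, n = 3 each). A missense change need not alter the RNA level, so these values do not check the genotype labels. The tissue labels were borne out by 10 hepatocyte markers, whose summed level was 86962 to 92077 CPM in R135W livers and 105530 to 105920 CPM in WT livers, and by 10 muscle fibre markers, at 161170 to 193890 CPM in R135W muscles and 150130 to 172260 CPM in WT muscles. The muscle library of R135W animal 12 held 44.4 CPM of hepatocyte markers, where the other 5 muscle libraries held 0.874 to 8.70 CPM. The liver library of WT animal 6 stood apart from the other WT livers in the sterol genes, so the liver results are given with and without it. As it was picked on these same genes, the results without it are no separate support. In bulk tissue, fewer cells of a type and less RNA per cell cannot be told apart.

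In liver, 1 of the 27 genes passed the test between genotypes. Hsd17b7, which encodes a reductase that acts in the removal of methyl groups from lanosterol-derived sterols, fell in R135W. A gene was called when edgeR's quasi-likelihood test gave an adjusted p under 0.05 over all 13935 genes tested in liver, where 3.28% of genes were called and 0.524% were called lower. No sterol gene was called higher, where 2.76% of genes were. Of the 27 genes, 22 had a negative log2 fold change (R135W over WT), against 50.7% of all tested genes, and the median was -0.29 against -0.01 over all tested genes. Among the 18 enzymes, 17 were negative, with a median of -0.48 and 8 with an unadjusted p under 0.05, all 8 of them lower, where 17.6% of all tested genes stood at that level and 6.75% stood there lower. The range ran from -0.85 for Sqle to 0.17 for Pmvk. The 3 R135W livers all lay below the 3 WT livers for 5 enzymes, Hmgcs1, Cyp51, Nsdhl, Hsd17b7 and Ebp, and all above for none, where 9.98% of tested genes separated in the lower direction and 13.8% in the higher.

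**Figure D1:**
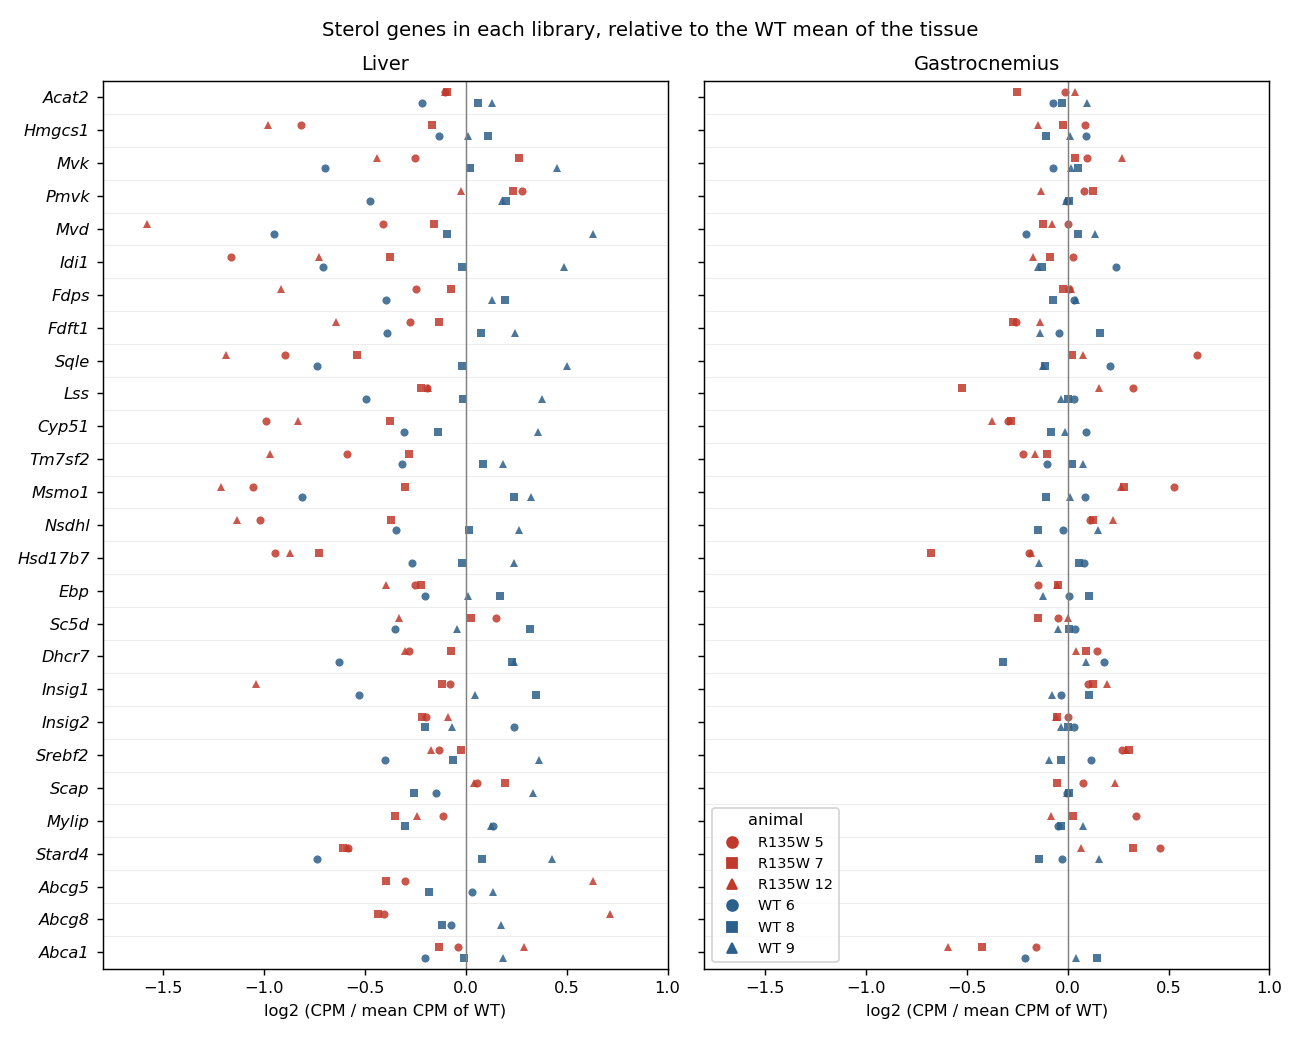
Level of each of the 27 genes in each library, as the log2 ratio of its CPM to the mean of the 3 WT libraries of the tissue (x axis), for liver (left) and gastrocnemius (right). Red points are R135W animals 5, 7 and 12 and blue points WT animals 6, 8 and 9, with genes ordered by role; Abcg5 and Abcg8 are not drawn in gastrocnemius, where they had 6 counts or fewer per library. In liver most red points lie left of 0, and so do the points of WT animal 6.

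The mevalonate steps start with Acat2 and Hmgcs1. Hmgcs1, the cytosolic synthase of HMG-CoA, had 263, 412 and 234 CPM in the livers of R135W animals 5, 7 and 12, against 422, 499 and 466 CPM in those of WT animals 6, 8 and 9. The highest R135W liver, that of animal 7, came close to the lowest WT liver, and the groups did not overlap. The log2 fold change was -0.61 (SE 0.21, adjusted p = 0.184), which did not pass the test. Idi1, the isomerase that makes the second isoprenoid unit, had 30.7, 53.0 and 41.6 CPM in R135W livers and 42.1, 67.8 and 96.4 CPM in WT livers. WT animal 6 lay within the R135W range, so the groups overlapped, for a log2 ratio of R135W to WT of -0.72 (SE 0.29, adjusted p = 0.247).

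The other 5 mevalonate genes all overlapped between genotypes in liver. Acat2, the cytosolic thiolase that joins 2 acetyl-CoA units, had a log2 fold change of -0.10, the mevalonate kinase gene Mvk -0.12 and the phosphomevalonate kinase gene Pmvk 0.17. The decarboxylase gene Mvd, at -0.61, had the widest spread among the enzymes, with 18.9, 22.5 and 8.40 CPM in R135W livers and 12.97, 23.5 and 38.8 CPM in WT livers. Each genotype thus held both a low and a high liver for Mvd, and its SE was 0.43. Fdps, which builds farnesyl pyrophosphate, the branch point towards other isoprenoids, had a log2 fold change of -0.37.

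At the squalene steps, Sqle had the most negative fold change of all 27 genes. Sqle encodes squalene epoxidase, the first oxygen-requiring step, and had 44.1, 56.5 and 36.0 CPM in R135W livers and 49.2, 80.9 and 116 CPM in WT livers. WT animal 6 again lay among the R135W animals, while the other 2 WT livers lay above all of them. The log2 fold change was -0.85 (SE 0.29, adjusted p = 0.175). The squalene synthase gene Fdft1 stood at -0.34 and the lanosterol synthase gene Lss at -0.20, both with overlapping groups. Fdft1 shares 774 bases, 27.04% of its exon length, with Ctsb on the other strand, and reads were counted without strand, so reads of the 2 genes in that stretch cannot be told apart. Ctsb, a lysosomal protease gene, had 891 to 969 CPM in R135W livers and 650 to 735 CPM in WT livers, and its part in the Fdft1 value was not tested. Lss shares 6.06% of its exon length with an antisense gene in the same way.

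The 8 enzymes after lanosterol were all negative in liver, with a median of -0.65, and 5 of them had an unadjusted p under 0.05. Hsd17b7 lies on chromosome 1 from 169949537 to 169969205 (mm10, minus strand), and had 35.3, 41.1 and 37.2 CPM in R135W livers, against 56.5, 67.2 and 80.3 CPM in WT livers. All 3 R135W livers were close together and lay well below the lowest WT liver. The log2 fold change was -0.84 (SE 0.14, 95% interval -1.17 to -0.52, adjusted p = 0.0205). Nsdhl, the dehydrogenase that acts just before it in the same demethylation, had 39.3, 61.8 and 36.4 CPM in R135W livers and 62.9, 80.8 and 95.8 CPM in WT livers. The groups did not overlap, although R135W animal 7 and WT animal 6 nearly met, and the log2 fold change was -0.80 (SE 0.23, adjusted p = 0.106).

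Msmo1, the sterol methyl oxidase that opens that demethylation, had 64.5, 109 and 57.8 CPM in R135W livers and 76.2, 158 and 167 CPM in WT livers. Its groups overlapped through WT animal 6 and R135W animal 7, for a log2 ratio of R135W to WT of -0.80 (SE 0.32, adjusted p = 0.244). Cyp51, the cytochrome P450 that takes the first methyl group off lanosterol, had 89.5, 137 and 99.8 CPM in R135W livers and 144, 161 and 228 CPM in WT livers. The R135W livers all lay below the WT livers, for a log2 ratio of R135W to WT of -0.71 (SE 0.21, adjusted p = 0.132). Tm7sf2, the reductase that follows Cyp51, had 112, 139 and 86.1 CPM in R135W livers and 135.4, 179 and 192 CPM in WT livers. Its groups overlapped only in that R135W animal 7 lay just above WT animal 6, and its log2 fold change was -0.59 (SE 0.20, adjusted p = 0.171).

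The last 3 enzymes showed smaller values. Ebp, the sterol isomerase, had 199, 204 and 181 CPM in R135W livers and 207, 267 and 239 CPM in WT livers, for a log2 ratio of R135W to WT of -0.29 (SE 0.13, adjusted p = 0.312). Its groups did not overlap, but by a narrow margin. The desaturase gene Sc5d stood at -0.04 and Dhcr7, the reductase that yields cholesterol itself, at -0.21, both with overlapping groups.

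**Figure D2:**
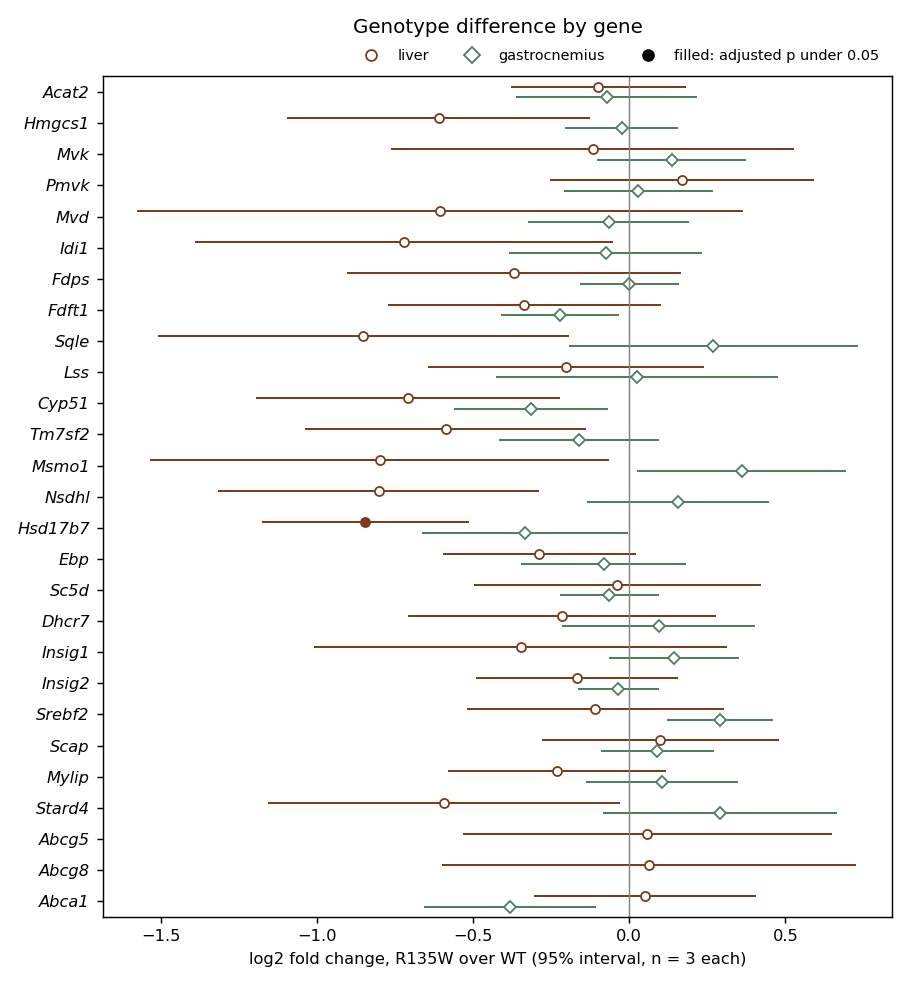
Genotype difference of each gene as log2 fold change, R135W over WT (x axis), in liver (brown circles) and gastrocnemius (green diamonds), with 95% intervals from edgeR and n = 3 libraries per group. A filled symbol marks an adjusted p under 0.05, reached by Hsd17b7 in liver alone; the liver intervals are wider than those of gastrocnemius for most genes.

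The animals differed among themselves within each genotype. Relative to the WT mean, the median enzyme stood at -0.35, -0.19 and -0.78 (log2) in the livers of R135W animals 5, 7 and 12, and at -0.39, 0.07 and 0.24 in those of WT animals 6, 8 and 9. R135W animal 12 was thus the lowest liver and R135W animal 7 the highest of its genotype, while WT animal 6 lay below R135W animals 5 and 7. WT animal 6 had the lowest WT level of all 18 enzymes; it lay above every R135W liver for 5 of them, within their range for 7 and below every R135W liver for 6. WT animals 8 and 9 each lay above every R135W liver for 16 of the 18 enzymes. The ratio of the highest to the lowest liver within a genotype had a median over the enzymes of 1.55 in R135W and 1.59 in WT, against 1.13 in R135W muscles and 1.15 in WT muscles.

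Which animals were included therefore changed the count of calls. WT animal 6 had the lowest WT level of every enzyme, so leaving it out makes their fold changes more negative by construction. Without WT animal 6, all 18 enzymes were negative in liver, with a median of -0.61. In that fit 3 sterol genes were called lower (Sqle, Hsd17b7 and Stard4), where 0.547% of all tested genes were called lower. In either direction, 285 genes of the whole table (1.999%) were called there. Without R135W animal 12 the enzyme median was -0.26, with 15 of the 18 negative and 4 of them lower at an unadjusted p under 0.05. Without WT animal 9 it was -0.29, again with 15 negative and 4 lower at that level. Without R135W animal 7 it was -0.66. Leaving out any 1 of the 5 livers other than that of WT animal 6 left no sterol gene called, and in those fits the genes called over the whole table also fell, to 84 to 266 (0.595% to 1.89%), against 457 with all 6 livers. Hsd17b7 then had adjusted p-values of 0.0549 to 0.0704 in edgeR's test, and its log2 fold change stayed between -0.91 and -0.71. DESeq2 called 5 sterol genes lower in liver (Hmgcs1, Sqle, Cyp51, Nsdhl and Hsd17b7). It called 1.75% of all tested genes lower there, against 0.524% by edgeR, and 5.60% in either direction, against 3.28% by edgeR.

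**Figure D3:**
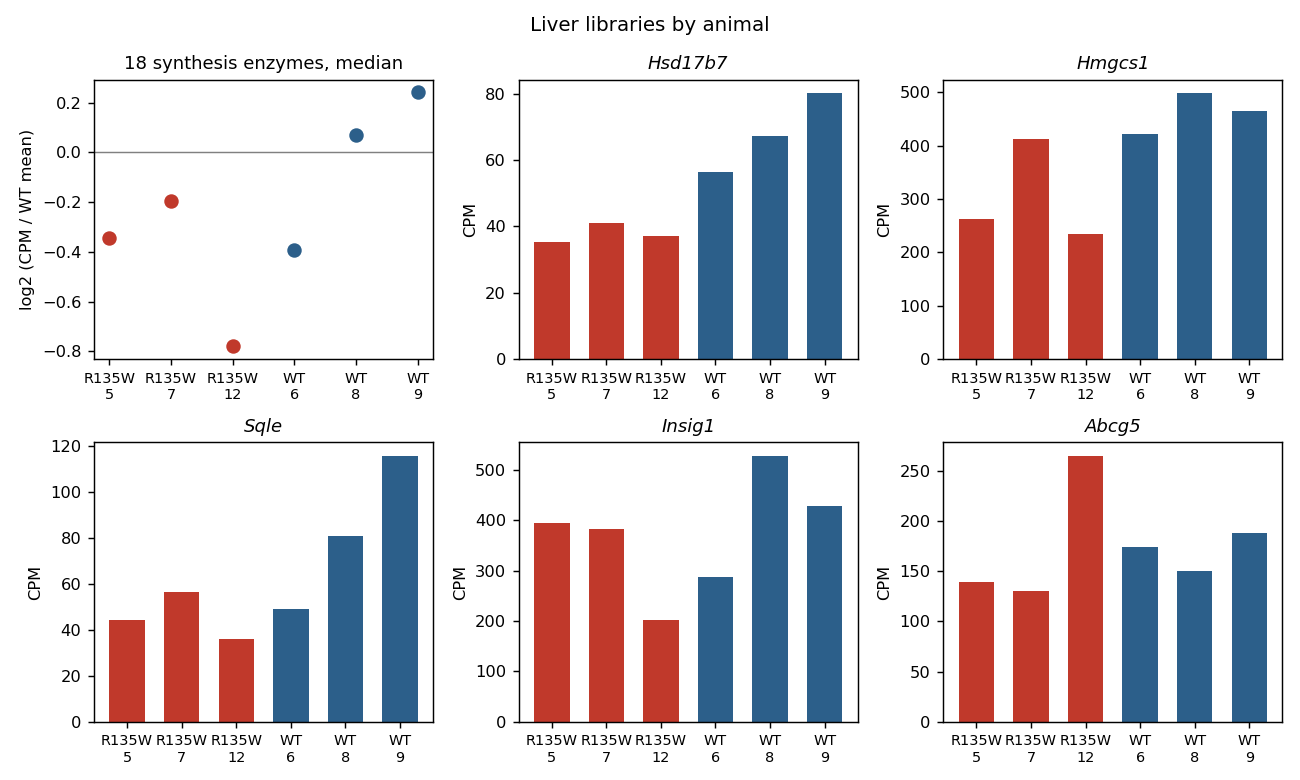
The first panel gives the median over the 18 synthesis enzymes of log2 (CPM over the WT mean) in each liver; the other 5 panels give CPM of Hsd17b7, Hmgcs1, Sqle, Insig1 and Abcg5 as bars from 0, 1 bar per animal, R135W in red and WT in blue. Hsd17b7 is at 35.3 to 41.1 CPM in the 3 R135W livers, below all WT livers, while for Sqle and Insig1 the liver of WT animal 6 lies within the R135W range; Abcg5 is highest in R135W animal 12.

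The promoters of the 5 enzyme genes whose R135W livers all lay below the WT livers are shown with the short motifs of factors that act on this pathway, since these genes separated the genotypes. Each runs from 250 bases before to 50 bases after the gene's start, 5′ to 3′ on the gene's strand, from RefSeq's GRCm38.p6 annotation. Capitals mark matches, on either strand, to TCACNCCAC (a form of the sterol regulatory element bound by SREBPs), CCAAT (the NF-Y box) and CACGTG (an E-box). The windows are Hmgcs1 at chr13:119690101-119690400 on the plus strand, Cyp51 at chr5:4104648-4104947 on the minus strand, Nsdhl at chrX:72918271-72918570 on the plus strand, Hsd17b7 at chr1:169969156-169969455 on the minus strand and Ebp at chrX:8193463-8193762 on the minus strand.
Hmgcs1: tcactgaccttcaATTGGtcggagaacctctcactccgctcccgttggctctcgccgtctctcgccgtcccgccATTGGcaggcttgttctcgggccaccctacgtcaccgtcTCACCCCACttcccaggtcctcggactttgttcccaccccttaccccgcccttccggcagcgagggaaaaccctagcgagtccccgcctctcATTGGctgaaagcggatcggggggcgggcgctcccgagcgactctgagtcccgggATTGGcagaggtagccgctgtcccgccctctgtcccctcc
Cyp51: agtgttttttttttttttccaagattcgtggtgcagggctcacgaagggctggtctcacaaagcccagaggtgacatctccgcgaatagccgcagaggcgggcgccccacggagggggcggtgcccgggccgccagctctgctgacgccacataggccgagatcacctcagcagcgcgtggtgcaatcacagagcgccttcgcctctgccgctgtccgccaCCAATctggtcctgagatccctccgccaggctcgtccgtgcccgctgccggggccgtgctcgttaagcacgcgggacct
Nsdhl: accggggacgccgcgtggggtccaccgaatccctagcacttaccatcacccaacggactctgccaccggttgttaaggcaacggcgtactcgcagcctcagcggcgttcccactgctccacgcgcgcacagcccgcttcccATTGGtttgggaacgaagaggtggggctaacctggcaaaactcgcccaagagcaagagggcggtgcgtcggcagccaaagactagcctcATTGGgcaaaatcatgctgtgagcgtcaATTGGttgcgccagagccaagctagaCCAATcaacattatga
Hsd17b7: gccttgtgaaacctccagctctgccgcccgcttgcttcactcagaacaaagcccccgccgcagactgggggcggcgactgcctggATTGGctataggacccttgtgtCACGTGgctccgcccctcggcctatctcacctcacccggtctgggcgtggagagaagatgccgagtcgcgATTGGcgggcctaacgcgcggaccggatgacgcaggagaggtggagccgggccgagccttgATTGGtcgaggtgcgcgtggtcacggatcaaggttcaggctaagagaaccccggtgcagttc
Ebp: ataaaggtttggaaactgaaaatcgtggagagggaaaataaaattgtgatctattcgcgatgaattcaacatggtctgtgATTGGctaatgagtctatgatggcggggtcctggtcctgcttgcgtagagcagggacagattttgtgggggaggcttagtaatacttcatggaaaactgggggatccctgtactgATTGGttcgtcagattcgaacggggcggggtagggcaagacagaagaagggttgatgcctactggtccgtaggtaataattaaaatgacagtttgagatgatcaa

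Of the 27 genes, 23 had a promoter in that annotation table; Fdps, Fdft1, Sqle and Stard4 had none. The start used lay 453 bases from that of the counted gene for Pmvk, 88 for Abcg5, 37 for Mvk and 22 for Lss. It was the same for the other genes. CCAAT occurred in 17 of the 23, among them 12 of the 15 enzyme promoters, against 37.4% of all 32851 promoters of the same length. Within the printed windows CCAAT was found 4 times for Hmgcs1 and Nsdhl, 3 times for Hsd17b7, 2 times for Ebp and 1 time for Cyp51. TCACNCCAC occurred only in Hmgcs1, 137 bases before the start, and in 1.24% of all promoters. CACGTG occurred in 5 of the 23 (Hsd17b7, Sc5d, Insig1, Scap and Abca1) and in 7.15% of all promoters, and no match overlapped another. These are letter matches, and no binding was measured.

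The 5 genes that sense sterols or control the pathway did not pass the test in liver, and all overlapped between genotypes. Insig1, which retains SCAP in the reticulum and is itself an SREBP target, had 394, 383 and 202 CPM in R135W livers and 288, 528 and 429 CPM in WT livers. As for most enzymes, R135W animal 12 was the lowest liver of its genotype and WT animal 6 the lowest of its own, and the log2 fold change was -0.35 (SE 0.29, adjusted p = 0.584). Srebf2, the gene of SREBP2, stood at -0.11, the escort gene Scap at 0.10 and Insig2, the second retention factor, at -0.17. Mylip, a ubiquitin ligase that marks lipoprotein receptors for breakdown, stood at -0.23.

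Sterol transport genes did not move as a group in liver. Stard4, a cytosolic carrier of cholesterol, had 28.8, 28.3 and 28.8 CPM in R135W livers and 25.9, 45.6 and 58.0 CPM in WT livers. The R135W livers were nearly equal and overlapped the WT livers only through WT animal 6, for a log2 ratio of R135W to WT of -0.59 (SE 0.25, adjusted p = 0.258). The 2 subunits of the canalicular sterol exporter, Abcg5 and Abcg8, moved together by animal, not by genotype. Abcg5 had 139, 130 and 265 CPM in R135W livers and 174, 151 and 188 CPM in WT livers, a log2 fold change of 0.06 (SE 0.26). Abcg8 had 131, 128 and 285 CPM in R135W livers and 165, 160 and 196 CPM in WT livers, a log2 fold change of 0.06 (SE 0.29). R135W animal 12, lowest of the R135W livers in 13 of the 18 enzymes and lowest of all livers in 9 of them and in Insig1, was thus the highest liver for both exporters and also for Abca1, which loads cholesterol onto lipoproteins and had 180 CPM there, against 134 and 143 CPM in the other R135W livers and 128 to 167 CPM in WT livers. Without R135W animal 12, the log2 fold changes became -0.35 for Abcg5 and -0.42 for Abcg8, neither called. On chromosome 17, the Abcg5 start at 84683011 (minus strand) lies back to back with an Abcg8 start at 84683121 (plus strand, GRCm38.p6). Another Abcg8 start, at 84676302, is that of the counted gene and lies within Abcg5. The 2 counted genes share 40 exon bases on opposite strands.

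Gastrocnemius showed no called sterol gene between genotypes. Of the 27 genes, 25 passed the filter on low counts, 0 were called and 6 had an unadjusted p under 0.05, where 0.875% of 13826 tested genes were called and 11.5% stood at that unadjusted level. DESeq2 and limma-voom called none either. The median log2 fold change was 0.00 over the 25 genes and -0.04 over the 18 enzymes, and 12 of the 25 were negative, against 50.1% of all tested genes.

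The muscle genes with the smallest p-values pointed in different directions. Srebf2 had 24.6, 25.2 and 24.9 CPM in R135W muscles and 22.1, 19.9 and 19.1 CPM in WT muscles, and all R135W muscles lay above all WT muscles. Its log2 fold change was 0.29 (SE 0.07, adjusted p = 0.151). Msmo1 also lay higher in every R135W muscle, with 3.41, 2.88 and 2.85 CPM in R135W and 2.52, 2.20 and 2.39 CPM in WT, at 0.36 (SE 0.15, adjusted p = 0.382). These Msmo1 levels rest on 62 to 82 counts per library.

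Other genes lay lower in R135W muscle. Cyp51 had 5.20, 5.25 and 4.93 CPM in R135W muscles and 6.79, 6.03 and 6.31 CPM in WT muscles, with no overlap, at -0.31 (SE 0.11, adjusted p = 0.302). Fdft1 had 66.4, 65.6 and 72.1 CPM in R135W muscles and 77.0, 88.8 and 72.2 CPM in WT muscles, at -0.22 (SE 0.08, adjusted p = 0.333). The groups of Fdft1 were apart by a hair, between R135W animal 12 and WT animal 9. Abca1 had 30.0, 24.9 and 22.1 CPM in R135W muscles and 28.8, 37.0 and 34.4 CPM in WT muscles, at -0.38 (SE 0.12, adjusted p = 0.258), with groups that overlapped through R135W animal 5. Hsd17b7, the gene called in liver, had 7.24, 5.17 and 7.30 CPM in R135W muscles and 8.75, 8.59 and 7.49 CPM in WT muscles, all R135W below all WT, at -0.33 (SE 0.15, adjusted p = 0.421). All R135W muscles lay below all WT muscles for 3 of the 25 tested genes and above for 2, against 8.4% and 8.24% of all tested genes. Beside these values, 1 of 6 endothelial markers was called higher in R135W muscle by edgeR. Of the 13826 tested genes, edgeR called 75 higher there, and 0.875% in either direction. In edgeR's test 5 of the 6 had an unadjusted p under 0.05, against 11.5% of all tested genes. DESeq2 called 2 of these markers higher, where it called 168 of the 13826 tested genes higher and 1.98% in either direction. The summed level of the 6 markers was 301 to 329 CPM in R135W and 239.8 to 276 CPM in WT. Their part in the sterol values was not tested.

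Whether the genotype difference itself differed between tissues was tested in a fit of all 12 libraries, and no sterol gene passed. In that test 0.13% of 15414 genes were called. Of the 27 genes, 6 had an unadjusted p under 0.05, against 9.95% of all tested genes; DESeq2 and limma-voom called 0 of the 27 as well. The difference (liver log2 fold change minus gastrocnemius log2 fold change) was negative for 23 of the 27 genes, against 51.9% of all tested genes, with a median of -0.40. Those 23 include Abcg5 and Abcg8, whose muscle counts are too low for use. Among the 18 enzymes, which leave both out, 16 were negative, with a median of -0.39. The difference was -0.97 for Nsdhl (SE 0.29, adjusted p = 0.264), -1.17 for Msmo1 (SE 0.45, adjusted p = 0.395) and -1.13 for Sqle (SE 0.43, adjusted p = 0.395). For Msmo1 and Sqle the fold change was negative in liver and positive in muscle. The difference was -0.89 for Stard4 (SE 0.35, adjusted p = 0.406) and -0.59 for Hmgcs1 (SE 0.24, adjusted p = 0.427). For Hsd17b7 it was -0.52 (SE 0.21, adjusted p = 0.433), so its liver call is not shown to be particular to liver. The values for Abcg5 and Abcg8 have no use here, since their muscle libraries held 6 counts or fewer.

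Across tissues of WT animals, nearly every sterol gene was more abundant in liver. Of the 27, 26 were called higher in WT liver than in WT gastrocnemius and 1, Mylip, lower, where 82.1% of 15414 tested genes were called, made up of 40.9% higher in liver and 41.2% lower. Abcg5 and Abcg8, counted among the 26, passed the filter on low counts through liver alone, so the direction of their calls was fixed in advance. The median log2 fold change, WT liver over WT gastrocnemius, was 3.49 over the 27 genes, against 0.00 over all tested genes. It was also 3.49 with Abcg5 and Abcg8 set at their lower bounds. All 18 enzymes were higher in liver, with a median of 3.59. The 8 enzymes after lanosterol had a median of 4.61, led by Msmo1 at 5.77 (SE 0.34) and Ebp at 5.43 (SE 0.13). Sqle stood at 5.23 (SE 0.32) and Insig1 at 5.31 (SE 0.29). The smallest differences among the enzymes were 0.75 for Fdft1 (SE 0.16), 1.49 for Mvk (SE 0.24) and 1.54 for Mvd (SE 0.36). The Fdft1 value carries the stretch shared with Ctsb, which had 325 to 376 CPM in WT muscles. The part of Ctsb in it was not tested.

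Among the genes that sense sterols or control the pathway, Insig1, given above, stood far from the other 4. Insig2 was higher in liver by 1.54 (SE 0.11), Srebf2 by 1.90 (SE 0.15) and Scap by 2.53 (SE 0.14), while Mylip was lower in liver, at -0.34 (SE 0.13, adjusted p = 0.0306). The Mylip call was lost when WT animal 8 or WT animal 9 was left out. Abcg5 had 0 counts in all 3 WT muscles, so that WT liver was at least 4375-fold higher, taking 3 counts over the group as the floor. Abcg8 had 2 counts in WT muscle and 11524 in WT liver, a 6682-fold ratio with a 95% counting interval of 1850 to 55176. In R135W muscle, 6 of the 7 Abcg5 counts came from animal 12, whose library held the most hepatocyte marker RNA.

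**Figure D4:**
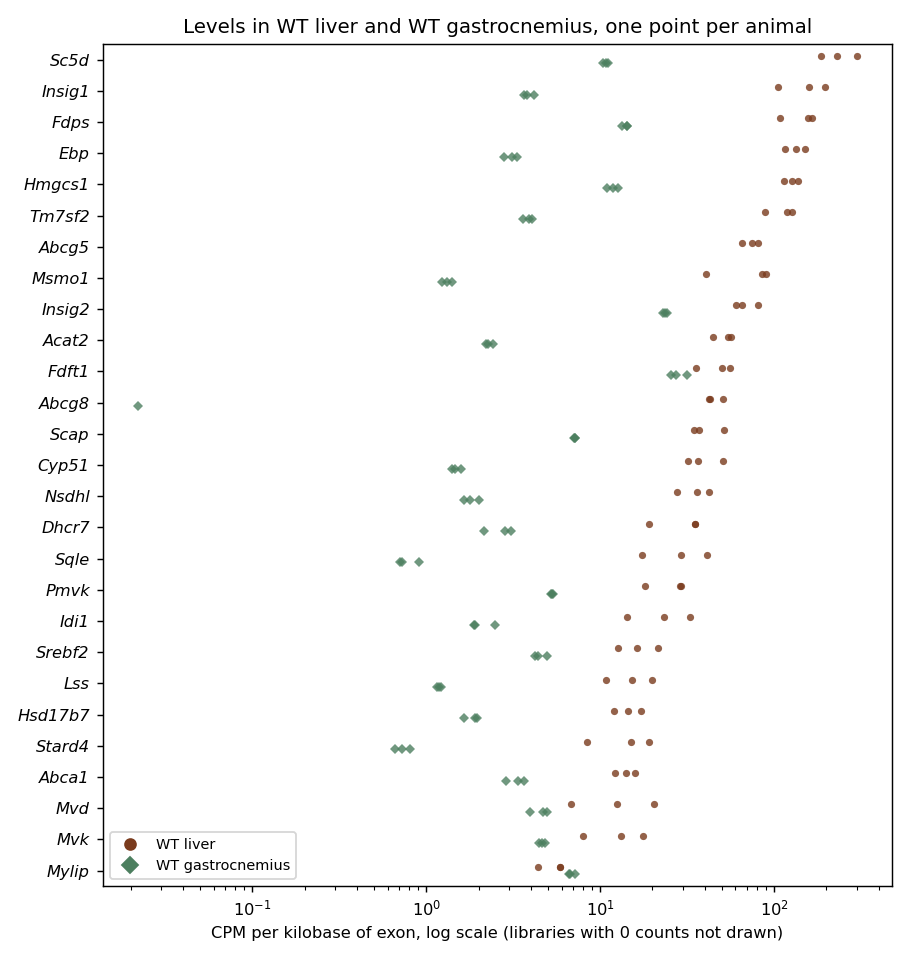
Level of each gene in WT liver (brown circles, 3 animals) and WT gastrocnemius (green diamonds, 3 animals) as CPM per kilobase of exon on a log axis, ordered by the liver mean from top to bottom. Sc5d leads in liver and Fdft1 and Insig2 lead in muscle; Mylip, at the bottom, is the only gene with its muscle points right of its liver points, and Abcg5 and most Abcg8 muscle libraries are not drawn because they held 0 counts.

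Per kilobase of exon, which allows levels of different genes to be compared, Sc5d was the most abundant sterol gene in liver, at 232 ± 37.5 CPM per kilobase in R135W and 238 ± 56.7 in WT (SD, n = 3 each). It was followed by Insig1, at 121 ± 39.3 in R135W and 154 ± 45.5 in WT, and by Fdps, Ebp and Hmgcs1, whose ranges in WT liver overlapped from one gene to the next. Mylip was lowest in liver, at 4.61 ± 0.404 CPM per kilobase in R135W and 5.38 ± 0.851 in WT, below the range of every other sterol gene in WT. Hsd17b7 was next to last in R135W livers, at 8.13 ± 0.586 CPM per kilobase, and stood among Lss, Stard4, Abca1, Mvd and Mvk in WT livers, at 14.5 ± 2.56. In gastrocnemius the order was different: Fdft1 led, at 24.3 ± 1.46 CPM per kilobase in R135W and 28.1 ± 3.10 in WT, followed by Insig2, at 23.3 ± 0.359 in R135W and 23.6 ± 0.688 in WT, and then by Fdps, Hmgcs1 and Sc5d. The Fdft1 level carries the stretch shared with Ctsb. Insig1, second in liver, was at 4.30 ± 0.186 CPM per kilobase in R135W muscles and 3.87 ± 0.274 in WT muscles.

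Genes around the pathway were counted in the same fits. Of the 12 genes that process or assist SREBPs, among them Srebf1, the site proteases Mbtps1 and Mbtps2 and the NF-Y subunits, 0 were called in liver by edgeR, DESeq2 or limma-voom and 0 had an unadjusted p under 0.05 in edgeR's test, with a median of 0.10; the smallest p belonged to Erlin1, at 0.28, and Rnf145, at 0.16. In gastrocnemius 0 of the 12 were called by any of the 3 tools and 0 had such a p, and Srebf1 stood at 0.22. Of the 8 oxysterol receptors and targets, 7 were tested and 1, Abcg1, rose in R135W liver, where 2.76% of all tested genes were called higher. Abcg1, a cholesterol efflux pump abundant in macrophages, had 12.3, 13.02 and 11.03 CPM in R135W livers and 7.04, 6.12 and 6.96 CPM in WT livers, with no overlap, for a log2 ratio of R135W to WT of 0.85 (SE 0.14, adjusted p = 0.0182). The call was lost in 4 of the 6 fits that left out 1 library, with adjusted p up to 0.0721. In gastrocnemius 0 of the 7 were called by any of the 3 tools, and 1 had an unadjusted p under 0.05, the liver X receptor gene Nr1h3 at -0.25.

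Beside Abcg1, 12 of 13 macrophage markers were called higher in R135W liver, against 2.76% of all tested genes. Their summed level was 1065 to 1180 CPM in R135W and 401 to 603 CPM in WT. No macrophage marker was at 0 in every liver of a group. Their part in the Abcg1 value was not tested. Hepatocyte markers were negative for 8 of 10 in liver, with a median of -0.13; 0 were called by edgeR, DESeq2 or limma-voom, 1 had an unadjusted p under 0.05 in edgeR's test, and their part in the enzyme values was not tested. Srebf1, whose product serves fatty acid synthesis in liver, was spread within R135W, at 708, 350 and 391 CPM, against 428, 423 and 443 CPM in WT livers.

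Of 19 genes for uptake, esterification, transport and disposal of cholesterol, 0 were called in liver by edgeR or limma-voom. In edgeR's test 4 (21.1%) had an unadjusted p under 0.05, near the 17.6% of all tested genes. DESeq2 called 2, Nceh1 lower and Npc2, a lysosomal cholesterol carrier, higher, where it called 5.60% of all tested genes. Nceh1, a cholesteryl ester hydrolase, had the smallest p, at -0.63 (SE 0.16, adjusted p = 0.0830), with 29.6, 36.7 and 24.3 CPM in R135W livers and 51.6, 41.4 and 47.1 CPM in WT livers. Soat1, which esterifies cholesterol, stood the other way at 0.64 (SE 0.17, adjusted p = 0.0862), with 6.58, 7.46 and 7.27 CPM in R135W livers and 3.88, 4.42 and 5.30 CPM in WT livers. Neither gene overlapped between genotypes. Cyp7a1, the rate-limiting enzyme of bile acid synthesis, was spread in both genotypes, at 131, 51.7 and 43.6 CPM in R135W livers and 7.18, 109 and 72.5 CPM in WT livers, with WT animal 6 the lowest of all.

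In gastrocnemius 16 of these 19 genes were tested and 1 was called, Cyp27a1, the mitochondrial sterol hydroxylase that makes an oxysterol. Of all tested genes, 0.875% were called there. Cyp27a1 fell in R135W muscle, with 55.0, 48.1 and 65.3 CPM in R135W and 78.1, 87.0 and 79.7 CPM in WT, with no overlap, for a log2 ratio of R135W to WT of -0.54 (SE 0.10, adjusted p = 0.0496). The call was lost in limma-voom, with the stricter filter, in the fit of all 12 libraries and in 5 of the 6 fits that left out 1 library.

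The isoprenoid branches did not move past the test. Of 13 genes that carry isoprenoids to dolichol, ubiquinone and prenylated proteins, 0 were called in either tissue by edgeR, DESeq2 or limma-voom. In edgeR's liver test their median was -0.06. An unadjusted p under 0.05 was reached by 2 (15.4%), Nus1 at -0.27 and Rabggta at -0.46, against 17.6% of all tested genes. In gastrocnemius 0 had such a p.

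Genes of the circadian clock, which paces sterol synthesis in liver, differed beside the enzymes. Of 16, 5 were called in liver, where 3.28% of all tested genes were called: Arntl at 1.40 and Npas2 at 2.01 rose, and Tef at -1.18, Hlf at -0.84 and Bhlhe41 at -1.83 fell; 14 of the 16 were negative, with a median of -0.69. DESeq2 called 8 of the 16, where it called 5.60% of all tested genes. By limma-voom 3 were called (Arntl, Tef and Hlf), where it called 2.87% of all tested genes. Of the 6 fits that left out 1 library, the call was lost in 2 for Arntl, 4 for Hlf, 5 for Tef, 5 for Bhlhe41 and all 6 for Npas2, and that of Bhlhe41 also with age as a covariate. Tef had 80.3, 88.9 and 66.2 CPM in R135W livers and 128, 188 and 218 CPM in WT livers. Dbp, an output of the clock, had 12.6, 19.9 and 6.05 CPM in R135W livers and 19.4, 61.7 and 91.3 CPM in WT livers. WT animal 6, low in the enzymes, was thus also the lowest WT liver for Tef and Dbp, and R135W animal 12 was the lowest of all livers for both. The labels give no time of collection, and the part of the clock genes in the sterol values was not tested. In gastrocnemius 0 of the 16 were called by any of the 3 tools. In edgeR's test there, 5 (31.25%) had an unadjusted p under 0.05, against 11.5% of all tested genes.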

How the data were processed

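Per the file headers, the authors ran featureCounts 1.5.2 on UCSC mm10 exons grouped by gene symbol, for read pairs with a primary alignment, ignoring strand and letting a fragment count for several overlapping genes; the deposited counts are raw and 1 file holds 1 library. The submitters' processing notes name STAR 2.4.0.

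From these counts, R135W was compared with WT separately for liver and gastrocnemius (6 libraries each) by the quasi-likelihood F test of edgeR 4.0.16 in R 4.3.3, after filterByExpr and TMM. P-values were adjusted by Benjamini-Hochberg over every gene tested and called under 0.05. The difference between tissues and the WT tissue comparison used all 12 libraries in 4 groups. SE is the log2 fold change over the square root of F. CPM used TMM-scaled library sizes within a tissue, and CPM per kilobase over all 12 libraries. Depth of 20751583 to 30460237 counts limits the genes with few counts; intervals on counts cover counting error only. Promoter motifs were searched in Python 3.11.15.

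The members, the gene lists and the rule for named genes were chosen with earlier results of these data known. The rule took every called member, the 8 of smallest p in liver, the 5 of smallest p in gastrocnemius and in the difference between tissues, and from each list its called genes or the 2 of smallest p. Further genes given by library (Insig1, Mvd, Stard4, Abcg5, Abcg8, Ebp, Srebf1, Cyp7a1, Dbp) and Hsd17b7 in muscle were chosen after their values were seen. The list of acetyl-CoA supply is not reported here. Alternatives were DESeq2 1.42.0, limma-voom (limma 3.58.1), size factors by RLE, no filter, a mean of at least 5 CPM in a group, age as a covariate, all 12 libraries, the animal as a block, each library or animal left out, and the motif window without the 50 bases after the start. The animal numbers in the titles pair liver with muscle, since age and genotype match for each number; the deviations of an animal's 2 libraries from their group means correlated at -0.01 to 0.10 over 12413 genes.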

Additional observations from a re-analysis of the deposited data

How the results depend on the processing

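Every alternative was planned. The count of sterol genes called lower in liver, 1, was 5 by DESeq2 and 5 in the fit of all 12 libraries. It was 3 with age as a covariate and 0 to 3 with 1 library left out. Of all tested genes, 0.524% were called lower in the main fit, 1.75% by DESeq2 and 1.91% with all 12 libraries. That share was 0.222% with age and 0.0212% to 0.547% with 1 library left out. The cause of these changes was not tested. DESeq2 called 781 genes in all in liver, 274 in gastrocnemius and 184 for the difference between tissues, against 457, 121 and 20 by edgeR, limma-voom called 7 for the difference, and the fit of all 12 libraries called 1057 in liver and 20 in gastrocnemius. Leaving out 1 library or animal lowered edgeR's counts in each case, to 84 to 285 in liver, 3 to 106 in gastrocnemius and 1 to 7 for the difference, so the shares of all genes called rest on all 3 animals per group. The enzyme median in gastrocnemius, -0.04, ran from -0.072 to 0.018 over the fits without 1 library, and the count called lower in WT liver against WT gastrocnemius from 0 to 1. With the animal as a block, which pairs the 2 tissues, 16 genes were called for the difference between tissues, against 20 without it, and the block changed no call of a sterol gene. The enzyme median in liver, -0.48, ran from -0.66 to -0.26 over the fits without 1 library, and stayed negative in each. Motif counts stayed within 1.5 times their value, and no sterol gene was called higher in R135W in any alternative run.

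Log2 fold changes turned sign in 26 of the 118 results per gene, none of a called gene. In liver, leaving out 1 library gave ranges of -0.37 to 0.18 for Mvk, -0.026 to 0.28 for Pmvk, -0.40 to 0.031 for Lss, -0.19 to 0.15 for Sc5d, -0.28 to 0.11 for Srebf2, -0.015 to 0.30 for Scap, -0.35 to 0.24 for Abcg5, -0.42 to 0.26 for Abcg8 and -0.086 to 0.15 for Abca1; limma-voom gave -0.025 for Abcg5 and -0.049 for Abcg8. In gastrocnemius they were -0.12 to 0.011 for Acat2, -0.077 to 0.040 for Hmgcs1, -0.023 to 0.11 for Pmvk, -0.16 to 0.0040 for Mvd, -0.14 to 0.058 for Idi1, -0.034 to 0.020 for Fdps, -0.14 to 0.24 for Lss, -0.045 to 0.19 for Dhcr7 and -0.023 to 0.20 for Mylip; age gave -0.00039 for Fdps and limma-voom -0.024 for Lss. For the difference between tissues, leaving out 1 animal gave -0.12 to 0.026 for Acat2, -0.54 to 0.024 for Mvk, -0.064 to 0.24 for Pmvk, -0.27 to 0.078 for Fdft1, -0.45 to 0.016 for Lss, -0.16 to 0.20 for Sc5d, -0.11 to 0.20 for Scap and -3.53 to 2.16 for Abcg8; RLE size factors and DESeq2 gave -0.011 for Scap. Depth limits Abcg5 and Abcg8 in muscle, at 6 counts or fewer per library.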
